A study of Mus musculus with 12 samples.

Results

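Long noncoding RNAs (lncRNAs) of mouse liver were compared 6 h against 3 h after injection of a nuclear receptor agonist, in the 4 strand-specific whole-tissue libraries of the series. All came from 8-week-old males of the outbred CD-1 stock, and each library held polyadenylated RNA pooled from 6 livers. The groups, of 1 library each, were TCPOBOP 6 h, PCN 6 h, TCPOBOP 3 h and PCN 3 h. Livers of the 6 h groups were taken at 2 PM and those of the 3 h groups at 11 AM. Time after injection and hour of day therefore went together and cannot be told apart. Every mouse had received an agonist, vehicle-treated libraries were not analysed here, and the dose is not given in the sources used here. Pooling averages the animals, so no value below carries a spread between mice, and the labels give no difference in strain or genotype between the groups.

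The series table lists 15558 lncRNA entries by identifier, mm9 position and class, with a level per library in RPKM (reads scaled to the length of the entry and to the read total of the library). Described here are the 595 entries with a mean of at least 1 RPKM over the 4 libraries (251 entries) or, among intergenic entries, at least 0.5 RPKM in any of them (344 more). The 251 comprised 132 intergenic, 69 antisense and 50 intragenic entries. Whether the authors counted reads by strand is not given in the sources used here, so reads of an antisense or intragenic entry may be those of the gene it overlaps. Because an entry among the 344 could qualify through its higher library alone, their counts of large differences carry no weight and are given only as a description. Among antisense and intragenic entries, the nearest on either side of the limit on the mean were ncRNA_as_chr11_9766 (kept, 1.01 RPKM) and ncRNA_as_chr11_9940 (left out, 0.993). On the other limit, ncRNA_inter_chr12_10705 was kept with a highest level of 0.501 RPKM and ncRNA_inter_chr4_3009 was left out with 0.4998.

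TCPOBOP is a synthetic agonist of CAR (the constitutive androstane receptor) and PCN a steroid agonist of PXR (the pregnane X receptor). Both are nuclear receptors of the hepatocyte that sense foreign compounds, bind DNA as partners of RXR and switch on genes for drug metabolism, among them cytochromes P450 of the Cyp2b, Cyp2c and Cyp3a families, conjugating enzymes and transporters. lncRNAs are transcripts with little or no protein-coding capacity, many of them low in abundance and kept near the chromatin they are made from, and some are induced together with neighbouring genes. Liver transcripts also follow a daily rhythm set by the clock and by feeding, so that levels can differ between late morning and early afternoon without any treatment. The table gives no gene symbols, so the labelled tissue could not be checked against hepatocyte, Kupffer, endothelial, stellate or bile duct markers, and 0 entries were matched to a named lncRNA. For the same reason no sequence is shown. In pooled tissue, fewer cells of a type and less RNA per cell cannot be told apart.

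The RPKM values stepped in whole reads, which gave totals of 27.8 M reads for TCPOBOP 6 h, 25.2 for PCN 6 h, 25.7 for TCPOBOP 3 h and 25.7 for PCN 3 h. lncRNA entries took 0.794% of reads in TCPOBOP 6 h and 0.807% in PCN 6 h, against 0.918% in TCPOBOP 3 h and 0.863% in PCN 3 h. The lncRNA share was thus lower at 6 h with either agonist, and the level of every entry below is relative to all reads of its library. Differences are given as log2(RPKM + 0.1) at 6 h minus that at 3 h, a scale that understates the change of low entries. Ratios are of reads per library total, 6 h over 3 h, with an exact (Clopper-Pearson) 95% interval in brackets. These intervals cover counting error only, and without molecular identifiers several reads can come from the same molecule.

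No entry passed the test of the time difference over the whole table. In limma, with agonist and time as additive terms, 0% of the 2270 entries tested passed an adjusted p under 0.05 (0 of 2270; lowest adjusted p = 0.328 in limma). The error of that fit came from the disagreement between the agonists on the time difference, with 1 residual degree of freedom. For each entry limma drew this error towards the trend over all entries fitted. Each group is 1 pool, so spread between pools cannot be told apart from a true disagreement between the agonists. The number of calls depended on the entries fitted and on the source of the spread. Restricted to the 251 with a mean of at least 1 RPKM, the same limma fit called 27 (7 higher and 20 lower at 6 h). When the 12 libraries were fitted together by group, 469 passed. The spread of that fit came only from the groups with replicates, pools of nuclear RNA from either sex at 3 h after TCPOBOP. The libraries compared here added nothing to it. The fit of the whole table gave an unadjusted p under 0.05 for 273 of the 2270 entries (12.03%) and for 32 of the 251 (12.7%), of which 9 were higher and 23 lower at 6 h. Of the 595 entries, 594 were in the fit. ncRNA_inter_chr5_4336, at chr5:87805320-87806627, was not, with 0.0824 RPKM at 6 h against 0.0297 at 3 h with TCPOBOP and 0.516 at 6 h against 0.0892 at 3 h with PCN. What follows gives levels in single libraries and which of them went together, with no claim that a difference would recur in other pools.

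Among the 251 entries with a mean of at least 1 RPKM, 2 were at least 2-fold higher at 6 h with both agonists (0.797%) and 8 at least 2-fold lower with both (3.19%). Over all entries tested, the shares were 2.16% higher and 3.83% lower of 2270. Among the 1145 tested entries with at least 20 reads with each agonist the shares were 1.14% higher and 2.10% lower. The share of the 251 that was higher lay below both backgrounds, and the share that was lower lay between them. With TCPOBOP, 16 of the 251 were past 2-fold upward and 21 past 2-fold downward, where the background over all entries tested was 7.27% higher and 12% lower. With PCN, 12 were past 2-fold upward and 26 past 2-fold downward, against a background of 6.96% and 11.5%. Most of the 251 entries were close between the times: the median size of the log2 difference was 0.36 with TCPOBOP and 0.29 with PCN, and it was smaller among the most abundant. For the 27 entries with a mean of at least 10 RPKM it was 0.29 with TCPOBOP and 0.18 with PCN, and 0 of them were 2-fold apart in 1 direction with both agonists. Including the 344 added intergenic entries, 13 of 595 were past 2-fold upward and 30 past 2-fold downward with both agonists.

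**Figure D1:**
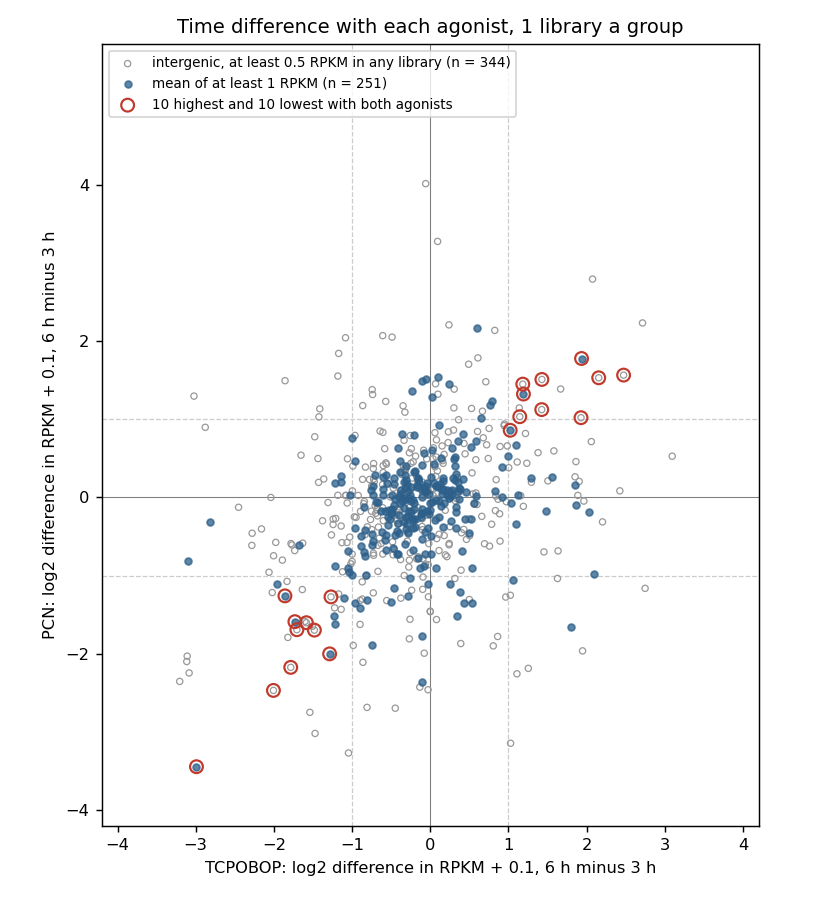
Each point is an lncRNA entry, with its log2 difference in RPKM + 0.1 (6 h minus 3 h) after TCPOBOP on the horizontal axis and after PCN on the vertical axis; dashed lines mark 2-fold, filled points are the 251 entries with a mean of at least 1 RPKM and open points the 344 added intergenic entries. Most filled points lie inside the dashed lines, and ncRNA_inter_chr8_6896 stands at the lower left with log2 differences of -2.99 and -3.44.

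Which direction was the commoner one depended on how the libraries were scaled. As deposited, 103 of the 251 were lower and 56 higher at 6 h with both agonists, and 92 had opposite signs or no difference. Their median log2 difference was -0.15 with TCPOBOP and -0.06 with PCN, where that of all 2270 entries tested was -0.22 and -0.09. When the 4 library medians were set equal, a shift of up to 0.12 on the log2 scale for a library (TCPOBOP 3 h), 72 of the 251 were lower and 86 higher with both. Quantile normalization gave 72 lower and 78 higher. The count of entries at least 2-fold higher with both agonists was 2 under both scalings as well, and the count of 8 lower became 6 with equal medians and 7 with quantile normalization.

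The 2 agonists were tested on separate pools, so their time differences share no library. Across the 251 entries the time differences with TCPOBOP and with PCN had a Pearson r of 0.37 and a Spearman rho of 0.34 (n = 251 entries of the same 4 libraries, given as a description), and over all 2270 entries tested r was 0.22. The same 251 entries were about as far apart between the agonists as between the times. At least 2-fold apart were 37 entries (14.74%) between 6 h and 3 h with TCPOBOP and 38 (15.1%) with PCN. Between TCPOBOP and PCN there were 28 (11.2%) at 6 h and 26 (10.4%) at 3 h, with median sizes of 0.39 and 0.37 on the log2 scale. Each of these 4 comparisons shares a library with another, so they are set side by side and not tested against each other.

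By class, at least 2-fold lower at 6 h with both agonists were 5 of the 132 intergenic entries, and 0 were as far higher. Antisense entries had 2 higher and 0 lower of 69, and intragenic entries 0 higher and 3 lower of 50. Over all entries tested in each class, the shares lower were 4.15% of 1712 intergenic, 2.62% of 458 antisense and 4% of 100 intragenic entries, and the shares higher 2.39%, 1.31% and 2%. The class medians were -0.12, -0.29 and -0.11 with TCPOBOP for intergenic, antisense and intragenic entries, and -0.04, -0.04 and -0.14 with PCN. With equal library medians those of the intergenic entries turned positive with both agonists (0.07 and 0.09), that of antisense entries turned positive with PCN (0.09) and that of intragenic entries with TCPOBOP (0.08). Only 2 of the 251 entries lay on chromosome X, and neither was 2-fold apart between the times. Spans under 500 bases were held by 32 of the 251, and their median size of difference was 0.56 with TCPOBOP and 0.84 with PCN. For spans from 500 to under 10000 bases it was 0.35 with TCPOBOP and 0.28 with PCN, and for the 104 longer ones 0.33 with TCPOBOP and 0.25 with PCN. The 32 short entries together held 643 to 789 reads in a library.

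Lower at 6 h with both agonists, the entry furthest from its 3 h level was intergenic ncRNA_inter_chr8_6896 on the minus strand at chr8:36467573-36478552. It had 0.700 RPKM at 6 h against 6.26 at 3 h with TCPOBOP and 0.187 at 6 h against 3.02 at 3 h with PCN, over 199 reads at 6 h against 1642 at 3 h with TCPOBOP and 48 at 6 h against 793 at 3 h with PCN. Both 6 h libraries lay below both 3 h libraries. Its ratio was 0.112 (0.0961 to 0.130) with TCPOBOP and 0.0618 (0.0452 to 0.0828) with PCN, and its fitted log2 difference was -3.22 (SE 0.24) with an adjusted p of 0.328 in limma. On the same strand 2277 bases away, ncRNA_inter_chr8_6894 at chr8:36462686-36465296 had 0.275 RPKM at 6 h against 1.19 at 3 h with TCPOBOP and 0.0609 at 6 h against 0.626 at 3 h with PCN. Together the pair held 219 reads at 6 h against 1722 at 3 h with TCPOBOP, and 52 at 6 h against 835 at 3 h with PCN. The smaller entry was admitted by its 3 h levels alone.

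On chromosome 18, ncRNA_inter_chr18_14605 at chr18:65403852-65412376 had 2.10 RPKM at 6 h against 7.87 at 3 h with TCPOBOP and 1.94 at 6 h against 4.79 at 3 h with PCN, over 498 reads at 6 h against 1725 at 3 h with TCPOBOP and 417 at 6 h against 1050 at 3 h with PCN. It too was lower in both 6 h libraries than in either 3 h library, with ratios of 0.266 (0.241 to 0.295) and 0.406 (0.361 to 0.455) for TCPOBOP and PCN. In every unstranded library of the series, that of TCPOBOP 3 h whole liver included, its level was 0. An antisense entry on the opposite strand 23122 bases away, ncRNA_as_chr18_14602 at chr18:65373674-65380730, had 1.08 RPKM at 6 h against 8.24 at 3 h with TCPOBOP and 2.85 at 6 h against 3.57 at 3 h with PCN. There the libraries of the 2 times lay further apart with TCPOBOP: the ratio was 0.132 (0.107 to 0.160) with TCPOBOP and 0.798 (0.678 to 0.938) with PCN.

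Chromosome 3 held 3 neighbouring intergenic entries between 14849582 and 14863233, all at least 2-fold lower at 6 h with both agonists. The highest, ncRNA_inter_chr3_2169 at chr3:14862872-14863233, spans 362 bases and had 6.15 RPKM at 6 h against 15.2 at 3 h with TCPOBOP and 2.74 at 6 h against 11.3 at 3 h with PCN. Both 3 h libraries were above both 6 h libraries. ncRNA_inter_chr3_2167 at chr3:14849582-14850071 had 1.39 RPKM at 6 h against 3.41 at 3 h with TCPOBOP and 1.38 at 6 h against 4.13 at 3 h with PCN, and ncRNA_inter_chr3_2168 between them had 0.237 RPKM at 6 h against 0.660 at 3 h with TCPOBOP and 0.184 at 6 h against 0.569 at 3 h with PCN. The last was admitted by its 3 h levels alone, and all 3 were joined after their values were seen. The entries lie on both strands, so the table does not hold them as 1 transcript.

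Intragenic ncRNA_intra_chr19_15006 on the minus strand, at chr19:39723892-39965167, lies within the stretch of chromosome 19 that holds the Cyp2c genes, a family of CAR- and PXR-responsive cytochromes P450. It had 0.877 RPKM at 6 h against 3.14 at 3 h with TCPOBOP and 0.480 at 6 h against 1.65 at 3 h with PCN, over 97 reads at 6 h against 321 at 3 h with TCPOBOP and 48 at 6 h against 168 at 3 h with PCN. The ratio was 0.279 (0.220 to 0.351) with TCPOBOP and 0.292 (0.207 to 0.404) with PCN, so that with either agonist the 6 h library lay outside counting error of its 3 h library. TCPOBOP libraries were the higher ones at each time. The unstranded TCPOBOP 3 h whole-liver library gave this entry 36.3 RPKM, against 3.14 in the stranded one.

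Of the 8 entries with a mean of at least 1 RPKM that were at least 2-fold lower with both agonists, 4 fall outside the rule for named entries and are given because of their values. One of them is ncRNA_inter_chr3_2167 above. ncRNA_inter_chr5_4220 at chr5:53364211-53383969 had 2.00 RPKM at 6 h against 4.42 at 3 h with TCPOBOP and 1.74 at 6 h against 4.403 at 3 h with PCN, over 704 reads at 6 h against 1438 at 3 h with TCPOBOP and 555 at 6 h against 1433 at 3 h with PCN. Its ratios were 0.452 (0.412 to 0.495) with TCPOBOP and 0.396 (0.358 to 0.437) with PCN, close to each other and well sampled. ncRNA_intra_chr6_5591 at chr6:121836168-121904118 had 2.73 RPKM at 6 h against 10.9 at 3 h with TCPOBOP and 2.08 at 6 h against 4.58 at 3 h with PCN. ncRNA_intra_chr19_15014 at chr19:40083334-40185159, again in the Cyp2c stretch, had 1.73 RPKM at 6 h against 4.16 at 3 h with TCPOBOP and 0 at 6 h against 0.208 at 3 h with PCN. For this last one the PCN libraries held 0 reads at 6 h and 2 at 3 h, within the 3 reads that a count of 0 allows, so only the TCPOBOP ratio of 0.415 (0.224 to 0.741) bears a difference.

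Another 5 of the 10 lowest named entries were intergenic and had means under 1 RPKM. ncRNA_inter_chr7_6509 at chr7:119330731-119347888 had 0.117 RPKM at 6 h against 0.608 at 3 h with TCPOBOP and 0.0930 at 6 h against 0.524 at 3 h with PCN. ncRNA_inter_chr17_13938 at chr17:45836245-45854814 had 275 reads at 6 h against 674 at 3 h with TCPOBOP and 107 at 6 h against 326 at 3 h with PCN, and its ratio was 0.377 (0.326 to 0.434) with TCPOBOP and 0.335 (0.267 to 0.418) with PCN. Of the 5, this entry alone reached 0.5 RPKM in a 6 h library (TCPOBOP), and the other 4 were admitted by their 3 h levels. On chromosome 11, ncRNA_inter_chr11_9646 at chr11:45646635-45665389 had 0.224 RPKM at 6 h against 0.871 at 3 h with TCPOBOP and 0.211 at 6 h against 0.844 at 3 h with PCN. ncRNA_inter_chr11_9925 at chr11:81791814-81833489 had 0.369 RPKM at 6 h against 1.21 at 3 h with TCPOBOP and 0.174 at 6 h against 0.790 at 3 h with PCN. The least sampled was ncRNA_inter_chr7_6391 at chr7:105534850-105543356, with 3 reads at 6 h against 20 at 3 h with TCPOBOP and 1 at 6 h against 19 at 3 h with PCN. Its 6 h levels thus rest on at most 3 reads.

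**Figure D2:**
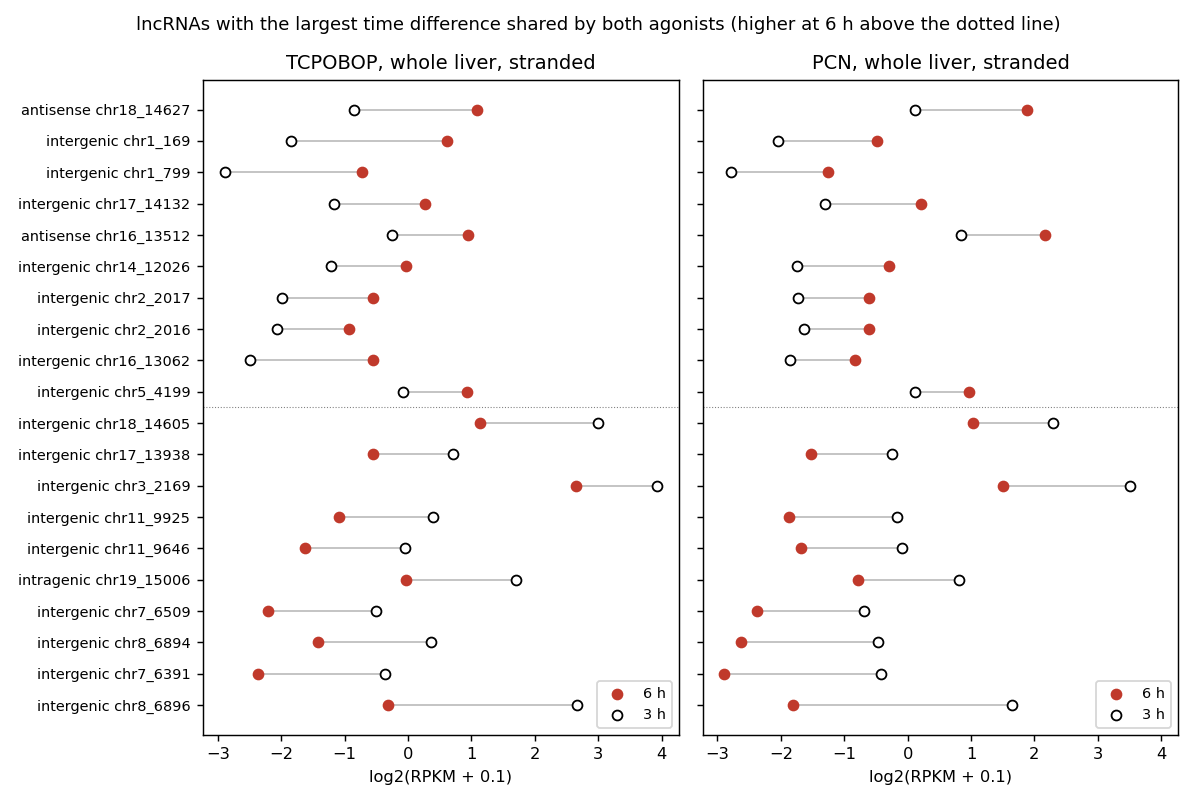
Levels as log2(RPKM + 0.1) are shown for the 10 entries furthest above (top) and the 10 furthest below (bottom) their 3 h level with both agonists. Only entries with at least 20 reads with each agonist were ranked, so entries with fewer reads may lie further out. TCPOBOP libraries are on the left and PCN libraries on the right. Filled points are 6 h, open points 3 h, 1 library each. Every filled point above the dotted line lies right of its open point and every one below it lies left, because the entries were chosen for that; ncRNA_inter_chr8_6896 has the longest line in each panel.

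Higher at 6 h with both agonists, the first entry by the naming rule was ncRNA_as_chr18_14627, an antisense lncRNA on the plus strand at chr18:67882975-67886225. It had 2.02 RPKM at 6 h against 0.455 at 3 h with TCPOBOP and 3.61 at 6 h against 0.981 at 3 h with PCN, over 183 reads at 6 h against 38 at 3 h with TCPOBOP and 295 at 6 h against 82 at 3 h with PCN. Both 6 h libraries were above both 3 h libraries, and the PCN library was the higher one at each time. The ratio was 4.45 (3.12 to 6.48) with TCPOBOP and 3.67 (2.87 to 4.75) with PCN, and the fitted log2 difference was 1.86 (SE 0.21) with an adjusted p of 0.328 in limma. The other of the 2 entries among the 251 at least 2-fold higher with both agonists was antisense as well. This entry, ncRNA_as_chr16_13512 at chr16:93788097-93795122, had 1.82 RPKM at 6 h against 0.739 at 3 h with TCPOBOP and 4.403 at 6 h against 1.70 at 3 h with PCN, over 301 reads at 6 h against 113 at 3 h with TCPOBOP and 659 at 6 h against 260 at 3 h with PCN. With TCPOBOP its ratio was 2.46 (1.97 to 3.08), and with PCN 2.59 (2.24 to 3.00). The agonists differed in its level as much as the times did, so TCPOBOP 6 h (1.82 RPKM) was close to PCN 3 h (1.70 RPKM).

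Of the 8 named intergenic entries higher at 6 h, 7 were admitted by their 6 h levels alone, so that choice fixes their direction and no ratio is given for them. On chromosome 1, ncRNA_inter_chr1_799 at chr1:172217060-172225836 had 0.503 RPKM at 6 h against 0.0355 at 3 h with TCPOBOP and 0.317 at 6 h against 0.0443 at 3 h with PCN, over 123 reads at 6 h against 8 at 3 h with TCPOBOP and 70 at 6 h against 10 at 3 h with PCN. Its neighbour on the same strand 17575 bases away, ncRNA_inter_chr1_800 at chr1:172243411-172244460, had 0.6498 RPKM at 6 h against 0.222 at 3 h with TCPOBOP and 0.795 at 6 h against 0.408 at 3 h with PCN. In both entries the 6 h libraries lay above the 3 h ones. The neighbour too was admitted by its 6 h levels alone, so its direction lends no support. Also on chromosome 1, ncRNA_inter_chr1_169 at chr1:40278298-40280860 had 1.44 RPKM at 6 h against 0.177 at 3 h with TCPOBOP and 0.615 at 6 h against 0.142 at 3 h with PCN, over 88 reads at 6 h against 10 at 3 h with TCPOBOP and 34 at 6 h against 8 at 3 h with PCN. The 3 h levels thus rest on few reads.

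Another group of neighbours lay on chromosome 2 between 167594275 and 167693755, with 5 intergenic entries on both strands that were all higher at 6 h with both agonists. They were put together after their values were seen, and a sum is not given because 2 of them overlap. Named by the rule were ncRNA_inter_chr2_2017 on the plus strand at chr2:167679265-167693755 and ncRNA_inter_chr2_2016, which overlaps it on the minus strand. The first had 0.580 RPKM at 6 h against 0.153 at 3 h with TCPOBOP and 0.557 at 6 h against 0.201 at 3 h with PCN. The second had 0.427 RPKM at 6 h against 0.138 at 3 h with TCPOBOP and 0.557 at 6 h against 0.221 at 3 h with PCN. The reads of this overlapping pair cannot be told apart here. Of the others, ncRNA_inter_chr2_2012 at chr2:167652653-167660376 had 0.697 RPKM at 6 h against 0.121 at 3 h with TCPOBOP and 1.19 at 6 h against 0.977 at 3 h with PCN, and so differed between the times mainly with TCPOBOP.

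The other 4 entries named as higher were intergenic as well. ncRNA_inter_chr14_12026 at chr14:51707750-51710710 had 0.873 RPKM at 6 h against 0.328 at 3 h with TCPOBOP and 0.711 at 6 h against 0.197 at 3 h with PCN. ncRNA_inter_chr17_14132 at chr17:81183084-81184661 had 1.10 RPKM at 6 h against 0.346 at 3 h with TCPOBOP and 1.06 at 6 h against 0.307 at 3 h with PCN. At 3 h the entry on chromosome 14 held 25 reads with TCPOBOP and 15 with PCN, and that on chromosome 17 held 9 and 8. ncRNA_inter_chr16_13062 at chr16:11008991-11015277 had 4 reads in TCPOBOP 3 h, against 32 in TCPOBOP 6 h. For ncRNA_inter_chr5_4199 at chr5:49943579-49943855, which had 14 reads at 6 h against 6 at 3 h with TCPOBOP and 13 at 6 h against 7 at 3 h with PCN, the intervals of both ratios include 1. Over the 20 named entries that went 1 way with both agonists, adjusted p in limma ranged from 0.328 to 0.364 and SE from 0.20 to 0.36 on the log2 scale.

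Not every difference was shared by the agonists, and the most extended case was on chromosome 2. Between 67828569 and 67872438, 7 intergenic entries on the plus strand, ncRNA_inter_chr2_1420 to ncRNA_inter_chr2_1426, were all at least 2-fold higher at 6 h with TCPOBOP, by 1.91 to 3.09 on the log2 scale. With PCN they differed by -0.98 to 0.53, and 0 of the 7 were 2-fold apart. Reads over the 7 summed to 748 at 6 h against 129 at 3 h with TCPOBOP, and to 379 at 6 h against 412 at 3 h with PCN. The ratio was 5.35 (95% interval 4.43 to 6.50) with TCPOBOP and 0.940 (0.815 to 1.08) with PCN. TCPOBOP 6 h was the highest library for each of the 7 and TCPOBOP 3 h the lowest. Each of the 7 also reached 0.5 RPKM in PCN 6 h, so none was admitted by TCPOBOP 6 h alone. ncRNA_inter_chr2_1426 had 2.07 RPKM at 6 h against 0.431 at 3 h with TCPOBOP and 1.19 at 6 h against 1.36 at 3 h with PCN. ncRNA_inter_chr2_1422, the longest of the 7, had 1.03 RPKM at 6 h against 0.190 at 3 h with TCPOBOP and 0.648 at 6 h against 0.672 at 3 h with PCN. The run was put together after the values were seen, from neighbours no more than 50 kb apart around 2 named entries, and whether its entries are pieces of 1 transcript was not tested. All 7 had 0 reads in each of the 8 unstranded libraries of the series, which are all of 3 h.

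**Figure D3:**
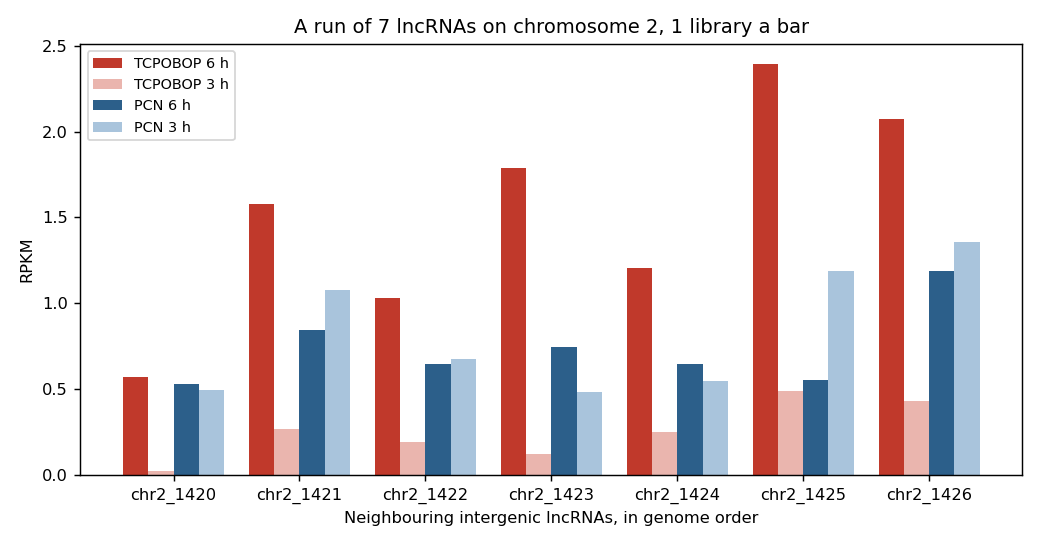
Bars give the RPKM of the 7 neighbouring intergenic entries on chromosome 2, in genome order, in TCPOBOP 6 h, TCPOBOP 3 h, PCN 6 h and PCN 3 h, 1 library a bar with no error bar because no group has a replicate. At each entry the TCPOBOP 6 h bar is the highest and the TCPOBOP 3 h bar the lowest, with 748 and 129 reads summed over the 7.

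The remaining entries with the largest gap between the agonists mostly rested on a handful of reads. By the naming rule, those with the time difference further up with TCPOBOP were ncRNA_inter_chr5_4063, ncRNA_inter_chr2_1425, ncRNA_inter_chrX_15549, ncRNA_inter_chr2_1421 and ncRNA_inter_chr9_8209. Among these the best sampled outside the chromosome 2 run was ncRNA_inter_chrX_15549 at chrX:166438248-166447046, with 52 reads at 6 h against 18 at 3 h with TCPOBOP and 17 at 6 h against 125 at 3 h with PCN. PCN 3 h held the highest count and was the library that admitted the entry. ncRNA_inter_chr9_8209 at chr9:90014735-90015956 had 0.529 RPKM at 6 h against 0.541 at 3 h with TCPOBOP and 0.0975 at 6 h against 0.987 at 3 h with PCN, so PCN 6 h stood below the other 3 libraries. ncRNA_inter_chr5_4063 at chr5:26335126-26335662 had 21 reads at 6 h against 4 at 3 h with TCPOBOP and 0 at 6 h against 4 at 3 h with PCN.

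Further up with PCN were ncRNA_inter_chr2_1492, ncRNA_inter_chr15_12750, ncRNA_inter_chr18_14446, ncRNA_inter_chr2_1608 and the antisense entry on chromosome 18 above. ncRNA_inter_chr2_1492 at chr2:77717317-77717981 had 14 reads at 6 h against 12 at 3 h with TCPOBOP and 24 at 6 h against 1 at 3 h with PCN. Its neighbour ncRNA_inter_chr2_1491 had 29 reads at 6 h against 90 at 3 h with TCPOBOP and 67 at 6 h against 28 at 3 h with PCN. ncRNA_inter_chr2_1608 at chr2:108897717-108898269 had 0.519 RPKM at 6 h against 0.844 at 3 h with TCPOBOP and 1.80 at 6 h against 0.352 at 3 h with PCN. Of these 5, the antisense entry had over 100 reads in every library, and the other 4 had 25 or fewer in each.

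Among the 8 most abundant entries the log2 differences ran from -0.73 to 0.29. Intragenic ncRNA_intra_chr12_10888 on chromosome 12, at chr12:105585227-105634106, was the highest in each of the 4 stranded libraries. Its levels were 630.4 RPKM at 6 h against 720.05 at 3 h with TCPOBOP and 668 at 6 h against 812 at 3 h with PCN. In the unstranded TCPOBOP 3 h whole-liver library it had only 5.39 RPKM, and in the 8 unstranded libraries at most 43.6. It overlaps ncRNA_intra_chr12_10886 at chr12:105582898-105635690, which had 104.79 RPKM at 6 h against 85.5 at 3 h with TCPOBOP and 117 at 6 h against 97.9 at 3 h with PCN. The first was lower at 6 h with both agonists, by ratios of 0.875 (0.836 to 0.917) and 0.823 (0.786 to 0.862), while the second was higher, by 1.23 (1.18 to 1.27) and 1.19 (1.15 to 1.23). These intervals exclude 1 at these read numbers, while the ratios themselves lie between 0.823 and 1.23. ncRNA_intra_chr16_13383, a short entry at chr16:57391224-57391795, had 268 RPKM at 6 h against 301 at 3 h with TCPOBOP and 323 at 6 h against 295 at 3 h with PCN. In all 8 unstranded libraries its level was 0. Antisense ncRNA_as_chr13_11451 at chr13:62183523-62398274 was the steadiest, with 100.3 RPKM at 6 h against 98.5 at 3 h with TCPOBOP and 98.4 at 6 h against 102 at 3 h with PCN. ncRNA_intra_chr2_1052 at chr2:5244786-5300422 had 84.3 RPKM at 6 h against 86.8 at 3 h with TCPOBOP and 104 at 6 h against 92.0 at 3 h with PCN, a ratio of 0.971 (0.876 to 1.08) with TCPOBOP and 1.13 (1.03 to 1.25) with PCN.

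ncRNA_inter_chr17_13909, at chr17:39979940-39985776, lies where the mouse genome has a copy of the ribosomal RNA precursor, and took 15.9% of lncRNA reads in TCPOBOP 6 h and 21.1% in PCN 6 h, against 18.04% in TCPOBOP 3 h and 19.0% in PCN 3 h. As deposited, its level was 216.5 RPKM in TCPOBOP 6 h, the lowest of the 4, and 292 in PCN 6 h, the highest. The 3 h libraries were between them, at 284 RPKM with TCPOBOP and 282 with PCN. Ribosomal RNA is largely removed by selection for poly-A tails, and the part of this entry in the levels of the others was not tested.

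Stretches of the genome known for liver genes were read through the entries that overlap them. The table pairs no entry with a gene, and whether an entry shares reads with a gene it overlaps was not tested. On chromosome 5, where the Cyp3a genes lie, 2 overlapping intragenic entries were close between the times and far apart between the agonists. ncRNA_intra_chr5_4738 at chr5:146389075-146670818 had 39.6 RPKM at 6 h against 48.7 at 3 h with TCPOBOP and 97.2 at 6 h against 124 at 3 h with PCN, and ncRNA_intra_chr5_4734 at chr5:146384760-146669283 had 2.27 RPKM at 6 h against 3.23 at 3 h with TCPOBOP and 5.09 at 6 h against 5.84 at 3 h with PCN. Both were lower at 6 h with each agonist, by 0.30 to 0.49 on the log2 scale with TCPOBOP and 0.19 to 0.35 with PCN, and stayed lower with equal medians. Beside Cyp2b10, a textbook target of CAR on chromosome 7, intergenic ncRNA_inter_chr7_5998 at chr7:26670803-26677472 had 2.01 RPKM at 6 h against 1.60 at 3 h with TCPOBOP and 0.351 at 6 h against 0.216 at 3 h with PCN. Its ratio was 1.26 (1.07 to 1.47) with TCPOBOP and 1.63 (1.06 to 2.53) with PCN for reads, and both intervals exclude 1. Antisense ncRNA_as_chr10_8460 at chr10:7498997-7502517 had 22.8 RPKM at 6 h against 17.1 at 3 h with TCPOBOP and 2.08 at 6 h against 1.14 at 3 h with PCN, a ratio of 1.33 (1.25 to 1.42) with TCPOBOP and 1.82 (1.43 to 2.35) with PCN. In these last 2 entries the libraries ranked by agonist first and by time second, and all 4 differences were upward under every scaling tried.

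The Cyp2c stretch on chromosome 19 held 4 entries, of which 3 were lower with both agonists as deposited and 2 at least 2-fold lower. Medians were -0.67 with TCPOBOP and -0.89 with PCN, and stayed below 0 under both other scalings. Without ncRNA_intra_chr19_15014, left out after seeing the data, they were -0.11 with TCPOBOP and -0.19 with PCN. With only 4 entries, the size of the medians thus depends on which entries are included. Apart from the 2 intragenic entries given above, intergenic ncRNA_inter_chr19_15004 at chr19:39360460-39361422 had 3.69 RPKM at 6 h against 2.46 at 3 h with TCPOBOP and 1.57 at 6 h against 1.66 at 3 h with PCN. ncRNA_intra_chr19_15011, which overlaps ncRNA_intra_chr19_15014 on the same strand, had 2.54 RPKM at 6 h against 2.75 at 3 h with TCPOBOP and 0.469 at 6 h against 0.550 at 3 h with PCN. Overlapping entries share reads or split them in a way the sources used here do not state, so the 2 were not independent.

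On chromosome 12, the stretch of the Serpina1 genes, which encode alpha-1-antitrypsin, the main plasma protease inhibitor made by hepatocytes, held 11 overlapping intragenic entries on 1 strand. All 11 were lower at 6 h with PCN as deposited (10 with equal medians or quantile normalization), by 0.13 to 1.11 on the log2 scale, with a median of -0.70 that was -0.57 with equal medians and -0.50 with quantile normalization. With TCPOBOP the median was -0.04, and it became 0.15 with equal medians. The most abundant, ncRNA_intra_chr12_10851, had 137 RPKM at 6 h against 187 at 3 h with TCPOBOP and 123 at 6 h against 171 at 3 h with PCN. Its ratio was 0.733 (0.679 to 0.792) with TCPOBOP and 0.718 (0.660 to 0.780) with PCN. ncRNA_intra_chr12_10859 differed with PCN alone, at 92.8 RPKM at 6 h against 92.0 at 3 h with TCPOBOP and 63.7 at 6 h against 105.405 at 3 h with PCN. Summed over the 11, reads were 2793 at 6 h against 2912 at 3 h with TCPOBOP, and 2124 at 6 h against 3027 at 3 h with PCN. Since the entries overlap, a read may be counted for several of them in these sums, and the 11 differences are far from 11 separate ones.

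Beyond it on the same chromosome, 3 intragenic entries overlapped the stretch of the Serpina3 genes, whose products are acute-phase protease inhibitors. Besides the pair of abundant entries above, ncRNA_intra_chr12_10883 at chr12:105372136-105582307 had 76.1 RPKM at 6 h against 20.8 at 3 h with TCPOBOP and 72.4 at 6 h against 77.5 at 3 h with PCN. TCPOBOP 3 h stood alone below the other 3 stranded libraries, with 63 reads against 215 to 250. In the unstranded TCPOBOP 3 h whole-liver library this entry had 171 RPKM, so its low level was not seen there. Levels by library type differed widely for many entries. Antisense ncRNA_as_chr12_10847, at lower coordinates than the Serpina1 entries (chr12:104851944-104854754), also had its lowest level in TCPOBOP 3 h. It had 35.5 RPKM at 6 h against 17.2 at 3 h with TCPOBOP and 29.6 at 6 h against 31.2 at 3 h with PCN. It was singled out after its values were seen, as 1 of 2 entries with a mean of at least 10 RPKM that were 2-fold higher with TCPOBOP. ncRNA_inter_chr1_291 at chr1:71934464-71942513, also chosen after its values were seen, was just short of 2-fold on the log2 scale with TCPOBOP, with 16.7 RPKM at 6 h against 8.34 at 3 h with TCPOBOP and 17.3 at 6 h against 11.98 at 3 h with PCN and ratios of 2.00 (1.88 to 2.13) and 1.44 (1.37 to 1.53).

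**Figure D4:**
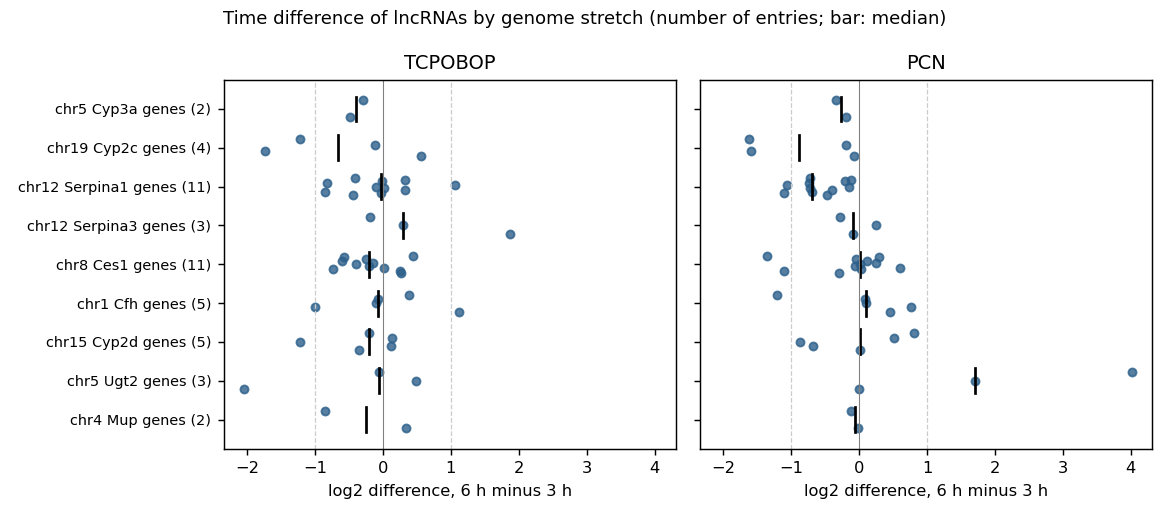
Points are entries, placed by their log2 difference in RPKM + 0.1 (6 h minus 3 h) with TCPOBOP on the left and PCN on the right, for each genome stretch with at least 2 entries (number in brackets); the black bar is the median. The 11 entries of the Serpina1 stretch are all left of 0 with PCN as deposited (median -0.70; 10 of 11 with equal medians) and spread around 0 with TCPOBOP (median -0.04).

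The carboxylesterase (Ces1) stretch on chromosome 8 held 11 overlapping intragenic entries with a median log2 difference of -0.21 with TCPOBOP and 0.01 with PCN. The first was -0.02 with equal medians and 0.05 with quantile normalization, so no direction is given. Its entries ranged from -0.74 to 0.44 with TCPOBOP and from -1.35 to 0.60 with PCN. The highest, ncRNA_intra_chr8_7314, had 13.5 RPKM at 6 h against 15.6 at 3 h with TCPOBOP and 20.7 at 6 h against 21.7 at 3 h with PCN. The stretch of complement factor H genes on chromosome 1 held 5 entries with medians of -0.07 with TCPOBOP, which was 0.12 with equal medians, and 0.10 with PCN. Its best sampled, ncRNA_intra_chr1_613, had 7.13 RPKM at 6 h against 7.48 at 3 h with TCPOBOP and 7.07 at 6 h against 6.68 at 3 h with PCN. In the Cyp2d stretch on chromosome 15, 5 intergenic entries had medians of -0.20 with TCPOBOP, which was 0.06 with quantile normalization, and 0.01 with PCN.

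Few entries lay in the other stretches. The Ugt2 stretch on chromosome 5, a family of glucuronosyltransferases, held 3 intergenic entries with at most 17 reads in a library. One, ncRNA_inter_chr5_4337 at chr5:87806773-87807139, had 1 read at either time with TCPOBOP, and with PCN 14 reads at 6 h against 0 at 3 h. ncRNA_inter_chr5_4336 next to it had 3 reads at 6 h against 1 at 3 h with TCPOBOP and 17 at 6 h against 3 at 3 h with PCN, so PCN 6 h was the highest library for both. At the Mup genes, which encode pheromone-binding urinary proteins made by male liver, antisense ncRNA_as_chr4_3298 had 2.22 RPKM at 6 h against 4.06 at 3 h with TCPOBOP and 2.20 at 6 h against 2.40 at 3 h with PCN, and intergenic ncRNA_inter_chr4_3286 had 1.14 RPKM at 6 h against 0.878 at 3 h with TCPOBOP and 0.483 at 6 h against 0.490 at 3 h with PCN. The stretch of the nuclear lncRNAs Neat1 and Malat1 on chromosome 19 held 1 entry, ncRNA_inter_chr19_14746 at chr19:5824552-5845906, with 13.0 RPKM at 6 h against 15.2 at 3 h with TCPOBOP and 12.5 at 6 h against 16.4 at 3 h with PCN. It was lower at 6 h with each agonist, with ratios of 0.855 (0.829 to 0.882) and 0.759 (0.735 to 0.784), and its TCPOBOP difference shrank to -0.04 on the log2 scale with equal medians. The stretches of the Sult2a, fibrinogen and Cyp4a genes held 0 of the 595 entries.

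The unstranded TCPOBOP 3 h whole-liver library gave a second reading of 1 of the 4 groups by another library type. Its levels differed widely from those of the stranded library. Of the 251 entries, 62 were at least 10 times higher in the stranded library, 14 at least 10 times higher in the unstranded one, and 62 within 2-fold. Across the 251 entries the log2 levels had a Pearson r of 0.40, given as a description of 2 libraries. In all 8 unstranded libraries 42 of the 251 entries had 0 reads, and 50 (19.9%) stayed under 0.1 RPKM. Among the 20 named entries that differed with both agonists, 3 of the 10 lower and 3 of the 10 higher were under 0.1 RPKM in all 8. ncRNA_inter_chr8_6896, for instance, had 0.00243 RPKM in the unstranded TCPOBOP 3 h library, whereas its neighbour ncRNA_inter_chr8_6894 had 6.11 there, above its 1.19 in the stranded one. No unstranded library of 6 h was among those used here, so the time difference was read in the stranded libraries alone.

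**Figure D5:**
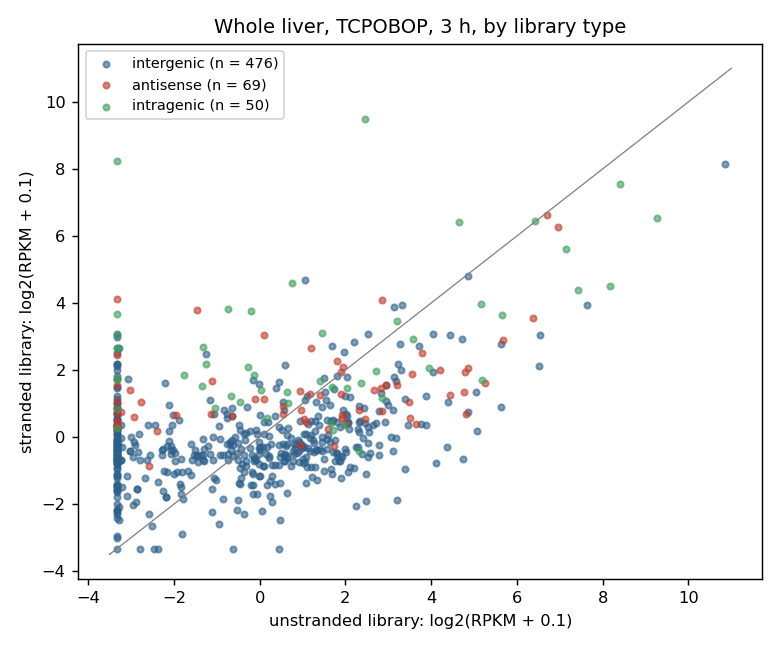
Each point is 1 of the 595 entries, with log2(RPKM + 0.1) in the unstranded TCPOBOP 3 h whole-liver library on the horizontal axis and in the stranded TCPOBOP 3 h library on the vertical axis, coloured by class; the line marks equal levels. Many points lie far from the line, and a column of points at the left edge holds entries that the unstranded library lists at or near 0.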

How the data were processed

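The authors deposited RPKM values per lncRNA entry, per the file headers (the sheet is titled FPKM). Alignment was to mouse mm9 with TopHat2, per the submitters' processing notes. How reads were counted, and by strand or not, is not given in the sources used here. Of 25 value columns, 13 were not used here. All 89242 values above 0 in the 12 libraries came out as whole reads, to 1e-04 of a read, once a total per library and a length per entry were recovered, which gave the read counts.

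The members, position lists and tests were chosen with earlier results of these data known. Entries with at least 0.1 RPKM in 2 of the 4 libraries (2270) entered a limma fit (limma 3.58.1, R 4.3.3) of log2(RPKM + 0.1) on agonist and time, in which the variance followed the mean and p-values were adjusted by Benjamini-Hochberg. The fit was tested on simulated data. Each agonist and time was 1 pooled library, so within-agonist differences have no test. Reads were compared with exact binomial intervals.

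Named entries were the 10 highest and 10 lowest by the smaller (in size) of their 2 time differences, with the same sign and at least 20 reads with each agonist, the 8 most abundant, and the 5 furthest up and 5 furthest down by TCPOBOP minus PCN time difference. For the last group 20 reads with 1 agonist sufficed. Neighbours within 50 kb were added after their values were seen. Alternatives were other pseudocounts, scalings, filters, folds, sources of spread and limma-voom on the recovered reads.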

Additional observations from a re-analysis of the deposited data

Results flagged for a closer look

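In 6 of the 494 entries with enough reads, the libraries were at least 2-fold apart in opposite directions with the 2 agonists, 3 with TCPOBOP higher at 6 h and 3 with PCN higher at 6 h. The share over all entries tested is not given for this count, so it has no background and is a description only. The difference between the agonists was not tested, since each rests on 4 single libraries. Values here are the TCPOBOP time difference minus the PCN time difference on the log2 scale. Higher at 6 h with TCPOBOP were ncRNA_inter_chr5_4063 (3.91), ncRNA_inter_chr12_10290 (2.28) and ncRNA_intra_chr12_10865 (2.11). ncRNA_inter_chr12_10290 held 32 reads at 6 h against 12 at 3 h with TCPOBOP and 5 at 6 h against 19 at 3 h with PCN. ncRNA_intra_chr12_10865, in the Serpina1 stretch, held 32 reads at 6 h against 14 at 3 h with TCPOBOP and 12 at 6 h against 26 at 3 h with PCN. Higher at 6 h with PCN were ncRNA_inter_chr15_12750 (-3.01), ncRNA_inter_chr18_14446 (-2.73) and ncRNA_inter_chr2_1491 (-2.45). The last was the best sampled of the 6, with 29 reads at 6 h against 90 at 3 h with TCPOBOP and 67 at 6 h against 28 at 3 h with PCN.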

How the results depend on the processing

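Of 2270 entries, limma called 0 with the 4 libraries and 273 had an unadjusted p under 0.05. With the fit restricted to a mean of at least 1 RPKM, 27 of 251 entries were called (7 higher and 20 lower at 6 h). Of these, 6 were among the 7 named entries in the fit that went 1 way with both agonists. The named entries were chosen for a large time difference shared by the agonists in the same libraries, so their calls lend no support. With all 12 libraries fitted together by group, 469 were called (163 higher, 306 lower). The spread of that fit came only from the groups with replicates, unstranded pools of nuclear RNA from either sex at 3 h after TCPOBOP. No stranded or whole-liver library added to it, and the cause of either gain was not tested. Other pseudocounts and scalings, no filter and limma-voom gave 0 calls each.

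Of the 595 entries, 13 (2.18%) were past 2-fold upward and 30 (5.04%) past 2-fold downward at 6 h with both agonists. Over all 2270 entries tested, the shares were 2.16% and 3.83%. Since 344 of the 595 could be admitted by their higher library alone, the counts over the 595 are a description only. A pseudocount of 1 left 1 higher and 2 lower, since it shrinks low entries, and the 251 entries with a mean of at least 1 RPKM alone held 2 and 8. At 1.5-fold there were 35 and 72, and at 4-fold 2 and 6. The share over all entries tested is not given for these folds or for the pseudocount of 1, so those counts have no background. The TCPOBOP median of -0.21 was -0.1075 with a pseudocount of 1, -0.0261 with equal library medians and -0.0502 with quantile normalization. The PCN median of -0.07 was 0.0591 with equal medians and 0 with quantile normalization. For the 20 named entries that went 1 way with both agonists, 78 of 200 alternative values moved by more than the SE and 0 changed sign. These entries were chosen for having the same sign with both agonists. Another pseudocount, read ratios or a library left out therefore could not change their sign, and the 0 says nothing about those settings. Of the 78, 19 came with a pseudocount of 1, 13 with 0.01, 12 with limma-voom, 14 with read ratios and 20 with a library left out. No paired analysis was possible because the replicate numbers in the labels link no libraries compared here. The agonist term already sets 6 h against 3 h within an agonist, and limma without it also called 0. Depth limits the low entries: a count of 0 allows up to 3 reads, which for 1 kb of transcript is 0.108 RPKM in TCPOBOP 6 h and 0.119 in PCN 6 h, against 0.117 in both 3 h libraries.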
